A study of Capitella teleta with 10 samples.

Results

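The gastrula of *Capitella teleta*, a marine annelid with a non-feeding larva, was compared with the 64-cell embryo. The comparison rests on the gastrula and 64-cell libraries, 4 of the 10 in the series (2 per stage). The other 6 come from stages 4tt, 5 and 7, which the study calls larvae, though the label of stage 4tt says embryo. All samples were whole, untreated embryos or larvae. Parents had been kept apart for several nights and then mixed, and zygotes were released from brood tubes and left to develop in sea water with antibiotics. Beside mating dishes, the study also names spontaneous broods found at weekly sifting, without saying which samples came from them. Values are normalized read counts per transcript model, here called a feature. Gastrula libraries were set against 64-cell libraries on log2(normalized count + 1), for features above 2 in at least 2 of the 10 libraries. This rule kept 35526 of the 41221 features. The study calls the samples of a stage biological replicates, but neither the labels nor its methods say whether they came from separate broods, so p-values measure only the spread between these samples.

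Early cleavage in animals runs largely on RNA and protein that the mother loaded into the egg. These maternal transcripts are cleared as the embryo's own genome becomes active, a change of control known as the maternal-to-zygotic transition, whose timing differs between species. In annelids with spiral cleavage the first divisions follow a fixed pattern and set up cell lineages, and at gastrulation the germ layers take their places. One gene can give several transcripts through different start sites, splicing or ends, so a gene may exchange one model for another while its total changes little. Identifiers in the deposited values carry no gene names except Capitella_post1, the posterior Hox gene Post1, and 0 identifiers matched a table of 31977 named genes. Features are therefore described by identifier, with no function or position. Capitella_post1 was listed at 0 in both gastrula libraries and in both 64-cell libraries.

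The gastrula libraries summed to 44954049 and 42779101 normalized counts, and the 64-cell libraries to 55846793 and 52969002. Features at 0 numbered 10220 and 10145 in the gastrula libraries, and 9785 and 10061 in the 64-cell libraries. The 2 gastrula libraries differed by more than 2-fold for 24.1% of the features tested, and the 2 64-cell libraries for 25.0%. The median size of the difference within a stage was 0.39 on the log2 scale at the gastrula and 0.38 at the 64-cell stage. Between single libraries of the 2 stages it lay between 1.46 and 1.51. In bulk embryos, fewer cells of a type and less RNA per cell cannot be told apart, and a lower level does not say whether a transcript was degraded or made more slowly.

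Calls required a log2 fold change over 1 in size and an adjusted p under 0.05 in limma, fitted to all 10 libraries. At the gastrula 7925 features were called higher (22.3% of those tested) and 7777 lower (21.9%), together 44.2%. The libraries of the stages did not overlap for 71.0% of all features tested and for each of the 15702 called. The numbers of rises and falls were close under the deposited normalization, though there were 6614 rises and 8884 falls after scaling by median ratios, and their sizes differed. The median log2 fold change was 2.34 among rises and -2.87 among falls, with a median standard error of 0.59 over all features. Above 4-fold there were 4910 rises and 5726 falls. Above 8-fold there were 2587 rises and 3587 falls, and above 16-fold 1399 and 1952. Rises made up 41.9% of the calls above 8-fold, and this share stayed between 34.2% and 46.3% under the alternatives tried. The order turned at the far end, where 236 rises and 173 falls exceeded 128-fold and 27 rises and 14 falls exceeded 1024-fold. That turn was not stable. The share of rises above 128-fold was 57.7%, but 49.2% after scaling by median ratios, 48.8% with a pseudocount of 0.1 and 49.6% without gastrula replicate 1.

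**Figure D1:**
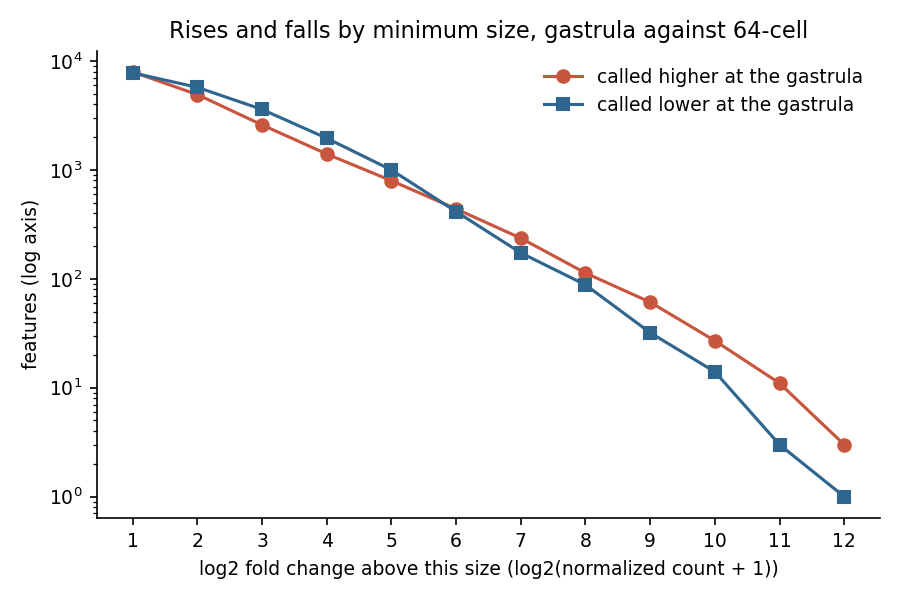
The horizontal axis gives a minimum size of the log2 fold change and the vertical axis, on a log scale, the number of called features above it, for rises (circles) and falls (squares) at the gastrula. Falls outnumber rises between 4-fold and 32-fold, for example 3587 against 2587 above 8-fold, and rises outnumber falls above 64-fold.

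The largest measured rise, among features above 0 in all 4 libraries, was that of CTELG00000012986.1. It had 80395 and 85472 normalized counts at the gastrula, against 5.84 and 4.09 at the 64-cell stage. The difference on the log2 scale was 13.78 (SE 0.41, adjusted p = 1.63e-07 by limma). Stage 4tt libraries had 49264 and 20049, stage 5 libraries 25822 and 14884 and stage 7 libraries 3723 and 5428, so its highest values were those of the gastrula. CTELG00000007460.1 had 77352 and 99882 normalized counts at the gastrula, against 16.5 and 47.4 at the 64-cell stage (log2 fold change 11.56, SE 0.42, adjusted p = 2.73e-07 by limma). It declined through 42995 and 47895 at stage 4tt to 1244 and 1832 at stage 7. Both features thus stood below 50 normalized counts in each 64-cell library and at 77352 or more in each gastrula library.

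The largest measured falls were those of CTELG00000024955.1 and CTELG00000024954.1. The first had 7.04 and 2.09 normalized counts at the gastrula, against 9362 and 10342.6 at the 64-cell stage (log2 fold change -10.95, SE 0.75, adjusted p = 5.31e-06 by limma). The second had 7.82 and 2.13 at the gastrula, against 7929 and 8347 at the 64-cell stage (log2 fold change -10.60, SE 0.69, adjusted p = 3.90e-06 by limma). In the 6 later libraries neither exceeded 1.53. The identifiers of these features are consecutive and their values ran closely alike. Whether their sequences are similar enough to share reads was not examined.

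The changes were also weighed by abundance, since a fold change says little about how much of the transcript pool moved. Features called higher held 36.4% ± 1.77 of the normalized counts at the gastrula, against 8.37% ± 0.24 at the 64-cell stage (SD, n = 2 each). Features called lower held 12.1% ± 0.0281 at the gastrula, against 50.1% ± 1.70 at the 64-cell stage. The 19824 features tested without a call held 51.6% ± 1.75 at the gastrula, against 41.5% ± 1.94 at the 64-cell stage. The summed loss of the falling features was 1.93 times the summed gain of the rising ones, and the total over all features changed by -19.4% at the gastrula relative to the 64-cell stage. These sums describe features chosen by the same contrast. They rest on the authors' normalization, under which libraries need not have equal totals. A small part of the called features carried 50% of the change, though normalized counts were concentrated in any library. The 900 features at ranks 101 to 1000 of one 64-cell library held 34.4% and 33.4% of the counts of the other. The 327 largest falls made up 50% of the summed loss, and the 278 largest rises 50% of the summed gain.

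**Figure D2:**
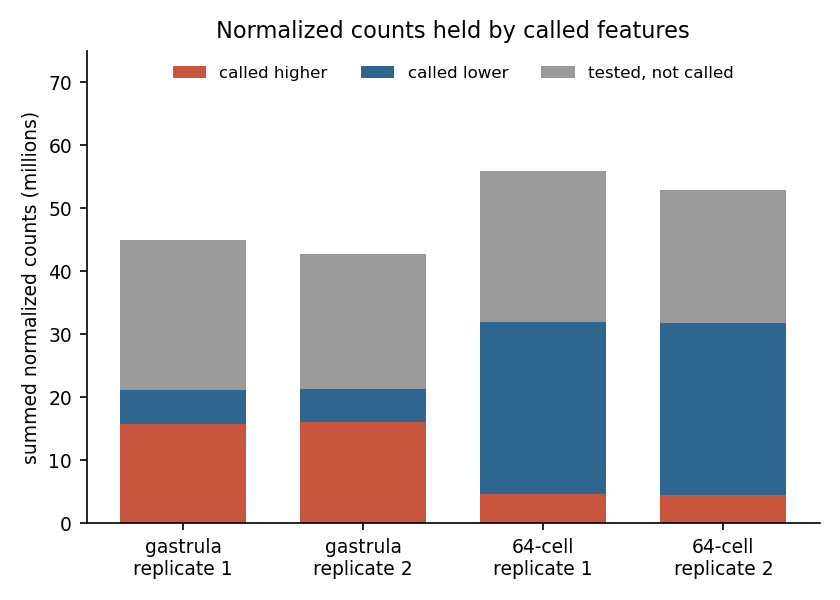
Bars show the summed normalized counts, in units of 1000000, of each gastrula and each 64-cell library, split into features called higher, called lower and tested without a call. Falling features filled 12.1% of the gastrula libraries on average, against 50.1% of the 64-cell libraries, and features without a call filled 51.6% of the gastrula libraries, against 41.5% of the 64-cell libraries.

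The greatest gain in normalized counts was that of CTELG00000010873.1, with 241886 and 231045 at the gastrula, against 39324 and 41601 at the 64-cell stage (log2 fold change 2.55, SE 0.13, adjusted p = 1.32e-06 by limma). CTELG00000000384.1 came next, with 157173 and 157841 at the gastrula, against 61818 and 55763 at the 64-cell stage. The difference on the log2 scale was 1.42 (SE 0.17, adjusted p = 0.000152 by limma). Both were already abundant in the 64-cell embryo, so the largest gains in amount were not the largest gains in proportion.

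Among losses of amount, CTELG00000025266.1 had 54807 and 38068 normalized counts at the gastrula, against 301242 and 293664 at the 64-cell stage (log2 fold change -2.70, SE 0.22, adjusted p = 1.21e-05 by limma). It stayed between 17377 and 45461 in the 6 later libraries. For CTELG00000001773.1 the normalized counts were 11752 and 3126 at the gastrula, against 231590 and 214879 at the 64-cell stage (log2 fold change -5.20, SE 1.63, adjusted p = 0.0258 by limma). Its gastrula libraries, and its stage 4tt libraries at 4470 and 48.3, differed widely, and the call was lost without 64-cell replicate 1 (log2 fold change -5.15), 64-cell replicate 2 (-5.26) or gastrula replicate 2 (-4.25).

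Against this turnover, 2565 features (7.22%) had a 95% interval of the log2 fold change within -1 and 1. Another 48.6% were neither called nor held within that interval, so for them 2 libraries per stage did not settle whether the level changed 2-fold. A call need not settle it either, since its p-value is against no change. For the called CTELG00000002609.1 the 95% interval was 0.52 to 1.90. The most abundant of the 2565 was CTELG00000005497.1, with 342561 and 290535 normalized counts at the gastrula, against 247850 and 233216 at the 64-cell stage. Its log2 fold change was 0.39, with a 95% interval of 0.044 to 0.74. CTELG00000014619.1 had 106191 and 110248 at the gastrula, against 126434 and 124434 at the 64-cell stage, with a log2 fold change of -0.21 and a 95% interval of -0.50 to 0.075.

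To see how the changes depended on abundance, features were first grouped by their mean over all 10 libraries. Under a mean of 10, 5.38% rose and 13.6% fell. Between 10 and 100, 18.2% rose and 19.3% fell. Between 100 and 1000, 34.9% rose and 25.5% fell. Between 1000 and 10000, 29.9% rose and 30.5% fell, and at 10000 or more 26.9% rose and 27.7% fell. The lead of rises between 100 and 1000, 3592 against 2621 falls, narrowed to 3059 against 2954 after scaling by median ratios, and falls led in the other 4 groups under that scaling. The ability to call a change differed between these groups. The median standard error was 0.93 under 10, 0.74 between 10 and 100, 0.35 between 100 and 1000, 0.19 between 1000 and 10000 and 0.17 above that. In the lowest group 0% of the intervals lay within -1 and 1, against 21.8% in the highest. Called rises had a median log2 fold change of 2.88 under 10, 2.93 between 10 and 100, 2.22 between 100 and 1000, 1.91 between 1000 and 10000 and 1.41 above that. Called falls had medians of -3.13, -3.58, -2.68, -2.17 and -2.05 in the same groups. Where the standard error was large, small changes could not be called. Over all features tested, the 95th percentile of the log2 fold change was 2.46 under 10, 4.59 between 100 and 1000 and 2.62 at 10000 or more. The spread of changes was thus widest at middle abundance on the rising side. A mean under 10 limits how high either stage can be, and with a pseudocount of 1 this limits the size of rises and of falls there. The 5th percentile in that group was -3.45. The part of this limit in the spread of changes was not tested.

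The balance of rises and falls turned with the stage that set the abundance. Rises made up 49.5% of the calls among features with a mean of 1000 or more over all libraries. The share was 61.9% when abundance was taken from stages 4tt, 5 and 7 only, 20.1% when it was taken from the 64-cell libraries and 40.2% after scaling by median ratios. Under a mean of 10, falls led in the overall grouping, with rises at 28.4% of the calls, and in the later-stage grouping, with rises at 19.7%, whereas the 64-cell grouping gave 81.2%. A feature high in one stage has more room to be lower in the other, so a grouping by either stage's own level favours one direction by construction. Groupings by all libraries or by later stages are not neutral either. The median rise stayed near its gastrula level later, and the median fall stayed below its 64-cell level. Such groupings therefore place falls lower than rises.

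To keep the noise of 1 library out of both the grouping and the change, features were grouped by a single library of a stage and the change was taken with the other library of that stage. Of the features at 10000 or more in one gastrula library (637 and 630, by the library used), 39.4% and 41.9% were more than 2-fold higher at the gastrula and 12.1% and 11.0% more than 2-fold lower. The median log2 difference was 0.78 and 0.84. Features at 10000 or more in one 64-cell library were more numerous (993 and 1005). Of these, 8.86% and 4.68% were more than 2-fold higher at the gastrula, and 62.1% and 64.4% more than 2-fold lower, with a median log2 difference of -1.62 and -1.71. Under the deposited normalization, the most abundant transcripts of the 64-cell embryo thus lay further below their earlier level than the most abundant gastrula transcripts lay above theirs. The margin was wider than the difference between the 2 libraries used. It depends on the scaling, since the 64-cell libraries had the larger totals, and no other scaling was applied to this grouping. Between 100 and 1000 in a 64-cell library the directions were close, at 32.6% and 33.2% higher and 30.7% and 30.6% lower.

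**Figure D3:**
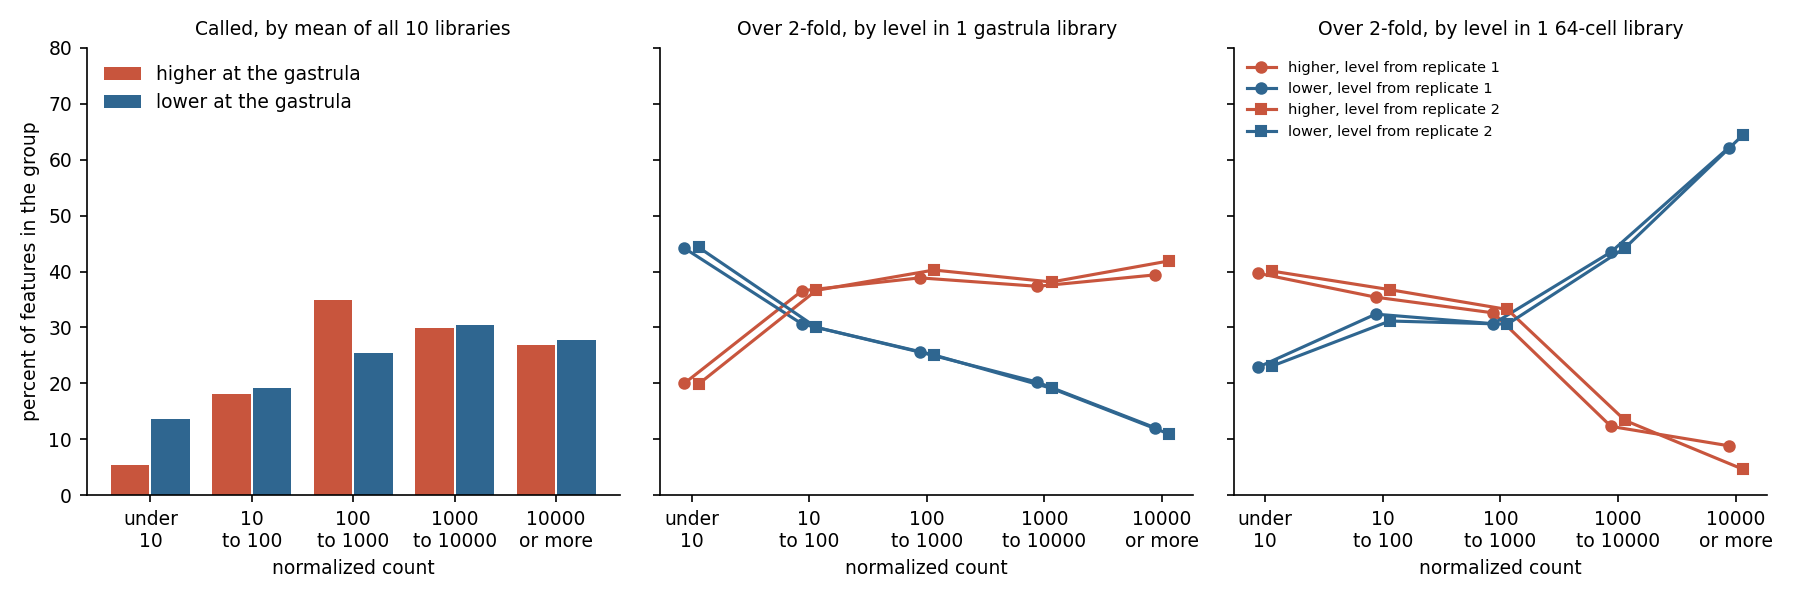
Vertical axes give the percent of features higher (red) or lower (blue) at the gastrula in each group of normalized counts on the horizontal axis. The left panel counts limma calls with features grouped by the mean of all 10 libraries. The other panels count differences over 2-fold with features grouped by 1 gastrula library or 1 64-cell library, whose own value was left out of the change. At 10000 or more in a 64-cell library, 62.1% and 64.4% were lower at the gastrula, and at 10000 or more in a gastrula library 12.1% and 11.0% were.

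The 10 most abundant features of a 64-cell library had a median log2 difference of -0.34 and -0.92, nearer to 0 than ranks 101 to 1000 with -1.73 and -1.76. Of the 10 most abundant features of either gastrula library, 6 were among the top 10 at the 64-cell stage by mean, and the same number of the 10 most abundant features of either 64-cell library stayed in the top 10 of the gastrula. For ranks 101 to 1000 of a 64-cell library, 567 and 585 of 900 features were more than 2-fold lower at the gastrula and 81 and 43 more than 2-fold higher. For the same ranks of a gastrula library, 353 and 369 of 900 were more than 2-fold higher at the gastrula and 125 and 118 more than 2-fold lower.

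Changes seen in 1 gastrula and 1 64-cell library were checked in the remaining library of each stage. Of features more than 2-fold higher in the first pair of libraries, 70.6% to 73.5% were more than 2-fold higher in the second, over the 4 ways of choosing. The share was 74.4% to 76.3% for features more than 2-fold lower. Between 31.2% and 32.5% of all features met the same criterion in a given direction. The repeat share was lowest among low features. Under a mean of 10 it was 39.9% to 41.8% for rises and 54.0% to 56.0% for falls. Between 1000 and 10000 it was 88.4% to 90.6% for rises and 89.4% to 93.5% for falls. At 10000 or more it was 89.2% to 95.9% for falls but ranged from 67.1% to 93.2% for rises, according to the libraries chosen. More than 2-fold differences in the opposite direction were found in the second pair for 18.5% to 18.9% of the low rises and for at most 0.102% of the rises between 1000 and 10000.

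Most called changes were shifts of a transcript present at both stages. Of the 7925 rises, 756 (9.54%) were at 0 in both 64-cell libraries and 446 had a mean above 0 but under 2 there. Another 2518 (31.8%) already stood between 100 and 1000 and 770 (9.72%) at 1000 or more. Of the 7777 falls, 964 (12.4%) were at 0 in both gastrula libraries and 694 had a mean above 0 but under 2, while 1185 (15.2%) still stood at 1000 or more. Rises had a median of 384 normalized counts at the gastrula, against 54.2 at the 64-cell stage. Falls had a median of 44.97 at the gastrula, against 429 at the 64-cell stage.

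The called features were also followed through the later stages, whose libraries entered the filter and the estimate of the spread but not the difference itself. The median rise held 374 and 382 normalized counts in the gastrula libraries, 374 and 370 in those of stage 4tt, 374 and 364 in those of stage 5 and 330 and 342 in those of stage 7. The median fall held 46.0 and 41.6 in the gastrula libraries, 88.9 and 76.1 in those of stage 4tt, 90.7 and 94.6 in those of stage 5 and 135 and 125 in those of stage 7. Features without a call had medians of 18.5 and 18.1 in the gastrula libraries and 31.2 and 33.6 in those of stage 7, so medians higher at stage 7 than at the gastrula were not particular to the falls, which had also been chosen for low gastrula values. The course differed between groups of size, without a steady order from small to large changes. The 414 falls of more than 64-fold had medians of 634 and 627 at the 64-cell stage, 3.58 and 1.93 at the gastrula and 4.19 and 4.20 at stage 7. The 3774 falls between 4-fold and 16-fold had medians of 172 and 178 at the 64-cell stage, 22.6 and 22.2 at the gastrula and 86.3 and 80.9 at stage 7. The 438 rises of more than 64-fold had medians of 1.73 and 2.35 at the 64-cell stage. They stood at 606 and 716 at the gastrula and 211 and 256 at stage 7. The 3511 rises between 4-fold and 16-fold stood at 174 and 182 at the gastrula and 201 and 214 at stage 7. Rises between 2-fold and 4-fold went from 771 and 776 to 625 and 641, and those between 16-fold and 64-fold from 139 and 158 to 116 and 127. Falls between 2-fold and 4-fold went from 527 and 534 at the gastrula to 692 and 652 at stage 7. Those between 16-fold and 64-fold went from 8.47 and 8.00 to 21.0 and 21.3.

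Complete loss and first appearance were then counted over all 41221 features, with a minimum of 10 normalized counts in both libraries of the stage that had the feature and 0 in both libraries of the other. A value of 0 does not mean that no RNA was present. The value of 1 read was at most 0.963 in the gastrula libraries and 1.16 in the 64-cell libraries, so the 3 reads that a count of 0 still allows correspond to at most 2.89 and 2.61 normalized counts in the gastrula libraries, and 3.49 and 3.44 in the 64-cell libraries (counting error only). First appearance at the gastrula was found for 370 features, which is 1.65% of the 22482 features with at least 10 in both gastrula libraries. Complete loss was found for 420 features, which is 1.86% of the 22542 with at least 10 in both 64-cell libraries. Losses were the more numerous at this minimum and appearances at higher ones. With at least 50 in both libraries there were 130 appearances and 105 losses, with at least 100 there were 69 and 53, and with at least 1000 there were 8 and 4.

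A listing at 0 did not always repeat between the libraries of a stage. Among features with at least 10 in both 64-cell libraries, 845 were at 0 in exactly 1 gastrula library, and in 217 of these the other gastrula library held 10 or more. Among features with at least 10 in both gastrula libraries, 862 were at 0 in exactly 1 64-cell library, and in 325 of these the other held 10 or more. The counts therefore depended on every library. Losses numbered 875 without gastrula replicate 1, 810 without gastrula replicate 2, 675 without 64-cell replicate 1 and 659 without 64-cell replicate 2. Appearances numbered 526 without gastrula replicate 1, 523 without gastrula replicate 2, 810 without 64-cell replicate 1 and 792 without 64-cell replicate 2. Which class was the larger thus turned with the library left out.

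The later stages played no part in either class. Of the 370 first appearances, 83.8% were above 2 in both libraries of stage 4tt, 81.9% in those of stage 5 and 80.3% in those of stage 7. They were above 2 in all 6 later libraries in 67.0% of cases, and 0 of them were listed at 0 in all 6. Of the 420 complete losses, 25.7% were above 2 in both libraries of stage 4tt, 26.7% in those of stage 5 and 35.7% in those of stage 7. They were at 0 in all 6 later libraries in 61 cases (14.5%), at most 2 in all 6 in 110 (26.2%) and above 2 in all 6 in 64 (15.2%). Most features that appeared at the gastrula thus exceeded 2 at every later stage, and most of those lost exceeded 2 in at least 1 later library. The later levels of the losses were low, with medians of 0 and 0.53 at stage 4tt, 0 and 0 at stage 5 and 1.13 and 1.81 at stage 7. At stage 7, 85 of the 420 losses and 228 of the 370 appearances had at least 10 in both libraries.

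**Figure D4:**
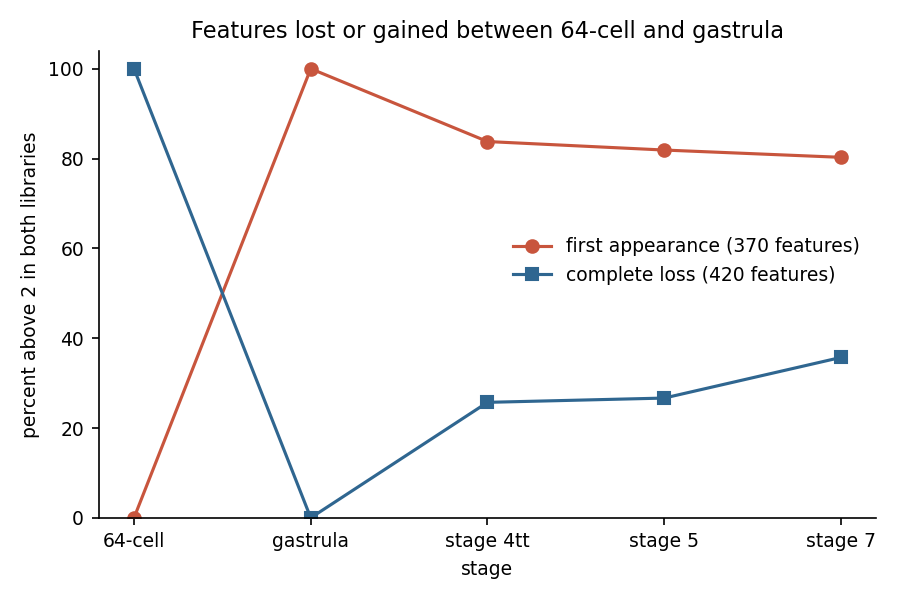
The vertical axis gives the percent of features above a normalized count of 2 in both libraries at each stage, for the 370 features that first appeared at the gastrula (circles) and the 420 lost at the gastrula (squares). Values at the 64-cell stage and the gastrula were set by the choice of features. At stage 7, 80.3% of the first appearances and 35.7% of the losses were above 2.

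Models of genes with several models made up a greater share of both classes than of the features that could have entered them. Of the first appearances, 117 (31.6%) belonged to such a gene, against 21.6% of all features with at least 10 in both gastrula libraries. Of the losses, 128 (30.5%) did, against 21.2% of those with at least 10 in both 64-cell libraries. The gene itself was then usually still present. Summed over its models, the gene had at least 10 in both gastrula libraries for 90 of the 128 lost models, and at least 10 in both 64-cell libraries for 100 of the 117 appearing models. On sums over each gene's models, 257 genes appeared and 298 were lost.

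The 2 most abundant losses were single models of persisting genes. CTELG00000024607.2 was listed at 0 in both gastrula libraries and in all 6 later libraries, against 4487 and 6873 normalized counts at the 64-cell stage (adjusted p = 1.01e-06 by limma). The other models of this gene remained, with 3212 and 3484 for CTELG00000024607.1 at the gastrula, against 5946 and 7405 at the 64-cell stage, and 2083 and 1701 for CTELG00000024607.3, against 6227 and 6961. CTELG00000014373.2 was likewise at 0 in both gastrula and all 6 later libraries, against 2177 and 3046 at the 64-cell stage (adjusted p = 1.44e-06 by limma). The sum of its gene's 4 models was 2431 and 2562 at the gastrula, against 5537 and 6408 at the 64-cell stage. In both genes the lost model was listed at 0 through stage 7 while other models held the gene's counts. Reads that fit several models are divided among them. Another model, CTELG00000014373.1, was listed at 0 and 454 in the 64-cell libraries and at 0 and 304 in those of stage 4tt. Whether the division of reads set the 0 of the lost models was not tested.

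Of the 2 most abundant first appearances, 1 was the only model of its gene. CTELG00000028024.1 had 4576 and 3914 normalized counts at the gastrula and was listed at 0 in both 64-cell libraries (adjusted p = 2.14e-07 by limma). It declined to 154 and 162 at stage 7. CTELG00000020470.3 had 3583 and 3264 at the gastrula and was listed at 0 in both 64-cell libraries (adjusted p = 1.22e-07 by limma), and it kept between 980 and 2072 in the later libraries. Its gene was present earlier through other models, with a sum of 4894 and 4626 at the gastrula, against 609 and 629 at the 64-cell stage. No fold change is given for features listed at 0 in a stage.

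Genes with more than 1 tested model numbered 2639, with 6001 models. Their models were more abundant than the sole models of other genes, with a median of 279 against 61.3 over all libraries, and were called more often, with 27.4% higher and 23.1% lower, against 21.3% and 21.7%. At least 1 model was called higher and another lower in 176 of these genes, 6.67% of those tested, and in 114 genes, 99 of them among the 176, when only the 4 libraries of both stages were fitted. The share was 4.56% of genes with 2 tested models, 11.5% with 3 and 23.7% with 4 or more, so it was greater where more models could be called. By comparison, 416 genes had at least 2 models called higher and none lower, and 353 at least 2 called lower and none higher. Where models of a gene were called more than once, they therefore moved together more often than apart. Reads that fit several models are divided among them by the pseudo-alignment, so models of one gene can trade reads, and the part of this in the opposite movements was not tested.

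In each of the 176 genes the model with the largest called rise and the one with the largest called fall were followed. These models were chosen on the same contrast, so the direction of the shares below was largely set by the choice. The median share of the gene's summed counts held by the rising model was 38.7% at the gastrula, against 2.42% at the 64-cell stage. That of the falling model was 20.1% at the gastrula, against 76.2% at the 64-cell stage. The most abundant model differed between the stages in 72 genes, and in 59 of these each library of a stage had the same most abundant model. No share over all genes with several models is given beside it. The summed gene was called higher in 26 of the 176, lower in 74 and not called in 76. Over all genes, 7214 sums were called higher and 7273 lower. The 176 had been chosen for calls in both directions. The median log2 fold change of the sums was -0.73, and in 40 genes its 95% interval lay within -1 and 1. In 30 genes the rising model was listed at 0 in both 64-cell libraries, and in 23 the falling model was listed at 0 in both gastrula libraries.

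In the later stages the order was less one-sided, and some loss of order follows from choosing the models on the earlier stages. The rising model exceeded the falling one in both libraries of the 64-cell stage in 24 genes, of the gastrula in 100, of stage 4tt in 79, of stage 5 in 83 and of stage 7 in 82. The falling model exceeded the rising one in both libraries of the 64-cell stage in 147 genes, of the gastrula in 59, of stage 4tt in 80, of stage 5 in 73 and of stage 7 in 81. Opposite movement, for which both models had to repeat, was seen again less often than single changes. Of the 355 to 392 genes with a model more than 2-fold higher and another more than 2-fold lower in 1 gastrula and 1 64-cell library, 44.6% to 46.9% showed both differences again for the same models in the remaining libraries. Between 13.5% and 14.9% of all 2639 genes had such a pair of models in a given pair of libraries.

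Ranked by the smaller of its called rise and fall, the opposite movement was largest in the gene CTELG00000005887, although other genes had a larger rise or a larger fall. Model CTELG00000005887.2 had 973 and 704 normalized counts at the gastrula, against 35.1 and 0 at the 64-cell stage (log2 fold change 7.11, SE 1.28, adjusted p = 0.00153 by limma). Model CTELG00000005887.4 had 29.9 and 0 at the gastrula, against 387 and 815 at the 64-cell stage (log2 fold change -6.66, SE 1.41, adjusted p = 0.00380 by limma). Over its 4 models the gene summed to 1179 and 824 at the gastrula, against 745 and 1182 at the 64-cell stage, and these overlapped. The sizes hung on single libraries, since CTELG00000005887.2 had a log2 fold change of 9.70 without 64-cell replicate 1 and 4.52 without 64-cell replicate 2, and CTELG00000005887.4 had -9.14 without gastrula replicate 1 and -4.19 without gastrula replicate 2. Both calls were lost when only the 4 libraries of both stages were fitted.

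In the gene CTELG00000004357, model CTELG00000004357.2 had 344 and 421 normalized counts at the gastrula, against 0 and 16.1 at the 64-cell stage (log2 fold change 6.53, SE 1.22, adjusted p = 0.00189 by limma). Leaving out 64-cell replicate 1 gave a log2 fold change of 4.48 and leaving out 64-cell replicate 2 one of 8.58, and this call too was lost with only both stages in the fit. Model CTELG00000004357.5 was listed at 0 in both gastrula libraries, against 1114 and 1033 at the 64-cell stage (adjusted p = 2.80e-06 by limma), and did not exceed 0.680 in the later libraries. Model CTELG00000004357.1 was the main one at the gastrula, with 1353 and 1340, against 348 and 380 at the 64-cell stage. The gene as a whole had 2098 and 2343 at the gastrula, against 1593 and 1573 at the 64-cell stage, so the exchange of its main model was far larger than the change of its sum.

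Genes with opposite models were also ranked by the less abundant of both models, each taken by its mean in its higher stage. The 2 leading genes each had 2 models. They were not the genes with the largest sums, since CTELG00000016067 summed to 14180 and 13440 at the gastrula. In CTELG00000002609, model CTELG00000002609.1 had 9067 and 13180 normalized counts at the gastrula, against 4452 and 5019 at the 64-cell stage (log2 fold change 1.21, SE 0.30, adjusted p = 0.00925 by limma). Model CTELG00000002609.2 had 2583 and 2314 at the gastrula, against 7742 and 8376 at the 64-cell stage (log2 fold change -1.72, SE 0.25, adjusted p = 0.000426 by limma). The sum of both did not separate the stages, with 11650 and 15493 at the gastrula and 12194 and 13395 at the 64-cell stage. The rise of CTELG00000002609.1 fell short of the minimum fold change after scaling by median ratios (0.93) and without gastrula replicate 2 (0.94).

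The other of these genes was CTELG00000011317. Model CTELG00000011317.2 had 5724 and 6464 normalized counts at the gastrula, against 583 and 1034 at the 64-cell stage (log2 fold change 2.97, SE 0.25, adjusted p = 1.74e-05 by limma). Model CTELG00000011317.1 had 175 and 193 at the gastrula, against 4215 and 4042 at the 64-cell stage (log2 fold change -4.48, SE 0.36, adjusted p = 1.20e-05 by limma). The gene's sum was 5900 and 6658 at the gastrula, against 4798 and 5075 at the 64-cell stage (log2 fold change 0.34, adjusted p = 0.0559 by limma). CTELG00000011317.1 returned to 1219 and 835 at stage 7, when CTELG00000011317.2 held 2100.4 and 2407.

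**Figure D5:**
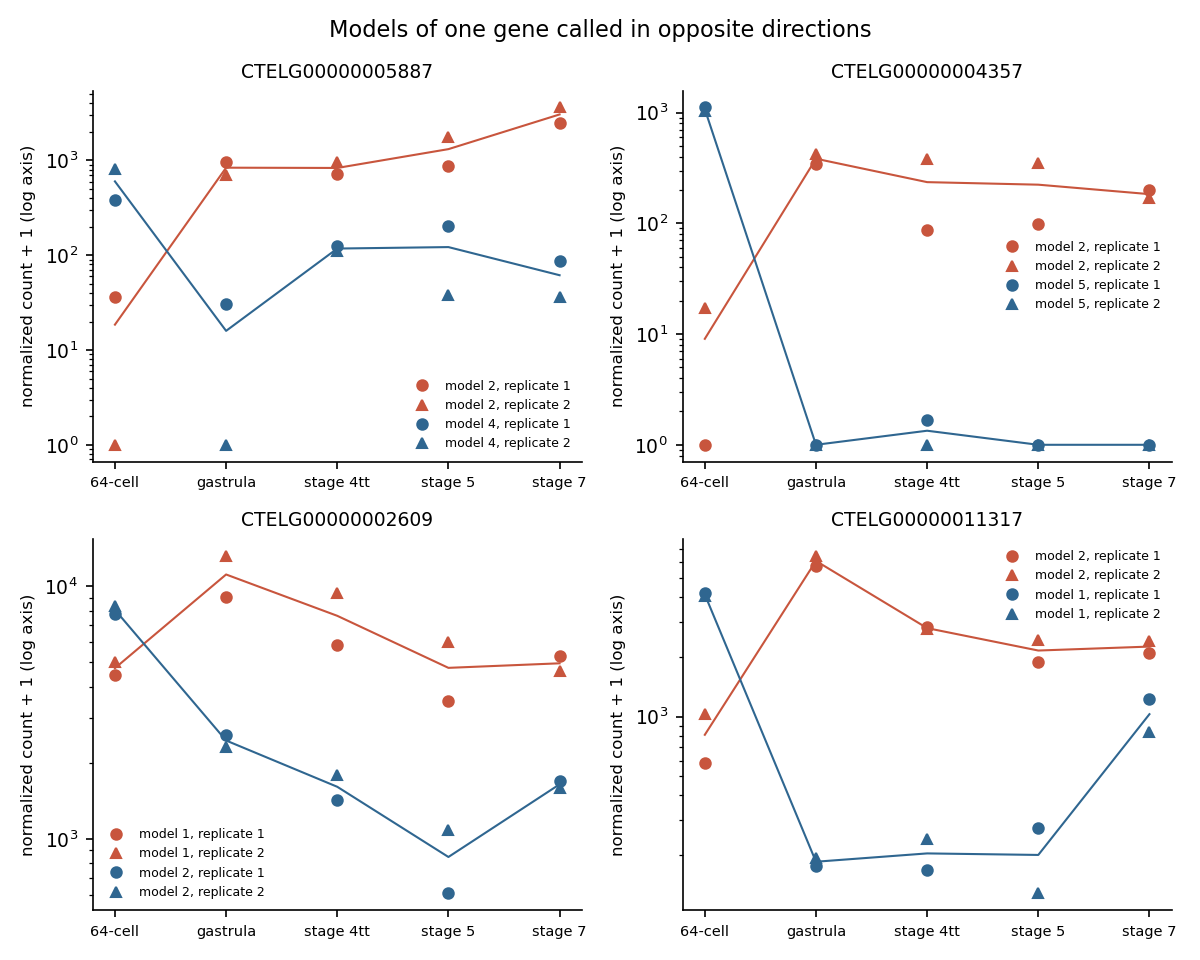
Each panel shows a gene with models called in opposite directions. The vertical axis is the normalized count plus 1 on a log scale and the horizontal axis the 5 stages, with replicate 1 as circles, replicate 2 as triangles and lines through the means. Red marks the model called higher at the gastrula and blue the model called lower. In CTELG00000011317 the red model stood at 5724 and 6464 at the gastrula and the blue model at 175 and 193.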

How the data were processed

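Total RNA of whole embryos and larvae was made into strand-specific mRNA libraries. The authors removed adaptors with trimmomatic, pseudo-aligned reads to filtered gene models (kallisto v0.46.2) and normalized the resulting counts between developmental stages (DESeq2 v1.30.1). What was deposited is therefore a signal, a normalized read count per transcript model, matched to samples by column name. Within a library, 1 read was worth up to 1.50 times as much in one feature as in another, so reads could not be recovered as whole numbers and tests for counts were not used.

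Values were transformed as log2(value + 1) and fitted with limma (v3.58.1, R v4.3.3), with 1 coefficient per stage, a mean-variance trend and Benjamini-Hochberg adjustment over 35526 features. The fit was tested on simulated data. Descriptions used Python (v3.11.15) and pandas (v2.3.3). Standard deviations are over 2 libraries. Genes were identifiers without the model suffix.

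Named features were, among called features without overlap of the libraries and averaging 10 or more in their higher stage, the 2 rises and 2 falls largest in fold change (above 0 in all 4 libraries) and in amount, the 2 most abundant losses and appearances, and 4 genes with opposite models chosen by size and by abundance. The 2 most abundant features with an interval within -1 and 1, and Capitella_post1, were added. The members, lists and tests were chosen with earlier results of these data known. Alternatives were median-ratio scaling, other filters, pseudocounts and fold thresholds, a replicate block, a fit of both stages only, gene sums, other abundance measures and leaving out each library.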

Additional observations from a re-analysis of the deposited data

How the results depend on the processing

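Rises and falls stayed within 1.5 times their reported counts under all alternatives except a minimum log2 fold change of 2, which left 4910 rises. With median-ratio scaling the median over all features was -0.10 on the log2 scale in place of 0.02, and the calls were 6614 rises and 8884 falls, which held 83.5% of the reported rises and 100% of the reported falls. Deviations of libraries with the same replicate number correlated at 0.032, which does not pair them, and a replicate block gave 8074 rises and 7829 falls. Genes with opposite models numbered 75 at a minimum log2 fold change of 2 and 114, with 99 of the reported 176, when only both stages were fitted, which leaves fewer degrees of freedom by construction. Leaving out 1 library gave 134 to 179 genes, and at least 65.9% of the reported ones remained.

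Complete losses numbered 645 with a minimum of 5, 105 with a minimum of 50 and 672 when at most 2 counted as absent. First appearances numbered 551, 130 and 517 under the same alternatives. Leaving out 1 library gave 659 to 875 losses and 523 to 810 appearances. Fewer libraries then had to be at 0 or to reach the minimum. The share of rises among calls at a mean of 1000 or more was 50.9% with no minimum fold change, 44.9% at a minimum log2 fold change of 2, 40.2% after median-ratio scaling, 48.9% with only both stages, 61.9% by later-stage abundance, 20.1% by 64-cell abundance and 49.5% to 50.7% with 1 library left out. Under a mean of 10 it was 29.7% with a filter at 5, 28.0% at a minimum log2 fold change of 2, 23.1% after median-ratio scaling, 27.7% with no filter, 33.9% with only both stages, 33.8% and 23.9% with pseudocounts of 0.1 and 5, 28.8% with a replicate block, 19.7% by later-stage abundance, 81.2% by 64-cell abundance and 24.2% to 29.9% with 1 library left out. For these shares the cause was not tested, beyond the dependence of each grouping on the stages that set it.

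Named features kept direction and call in 412 of 423 fits, and 11 fits kept the direction and lost the call. Many of these fits could not alter the fold change, only the call. They were other filters and thresholds, the replicate block, the fit of both stages and the omission of a later-stage library. Most named features had also been picked for large changes. Depth limits low features most, since a value of 0 allows 3 reads.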
